A study of Mus musculus with 32 samples.

Results

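Inguinal white adipose tissue (iWAT) is the main subcutaneous fat pad of the mouse. Here 4 iWAT libraries from mice given auranofin were compared with 4 iWAT libraries from mice given its vehicle, 8 of the 32 libraries of the series. The libraries were chosen by their labels, and the comparison covered every gene whose FPKM averaged at least 0.5 across these 8, which left 13164 of the 54532 genes in the deposited table. FPKM (fragments per kilobase of gene length, scaled to the size of the library) is a level that can be compared between genes, and changes are given as the difference of mean log2(FPKM + 1), auranofin minus vehicle, so that 1 is a doubling of FPKM + 1 and low genes are understated.

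Every mouse was wild-type and of a C57Bl/6 strain, given as C57/Bl6j. Both groups had been on a high-fat diet, labelled 60%, for 12 weeks and then received either vehicle or auranofin, 1 mg per kg body weight, 3 times a week for 4 weeks, so the controls shared the high-fat diet. Liver, epididymal white fat (eWAT) and intrascapular brown fat (BAT) were sampled under the same 2 treatments. The title and design pose the question of how auranofin acts on white fat and on leptin. No age or sex was given in the labels used here, nor whether each library came from a separate animal, so p-values measure the spread between these libraries, which may in part be technical.

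Fat cells of this depot store triglyceride, release it as fatty acids through lipolysis, and secrete hormones such as leptin, which reports the size of fat stores to the brain, and adiponectin, which improves insulin sensitivity. Under adrenergic stimulation some of them become beige cells, rich in mitochondria. Auranofin is a gold compound long used against rheumatoid arthritis. Its best known protein targets are the thioredoxin reductases, selenium-containing enzymes that keep thioredoxin reduced in the cytosol and in mitochondria.

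The libraries held between 16015264 and 18436456 reads in genes. Auranofin library 2 stood apart from the other 3 auranofin libraries before any gene was tested. On the first principal component, which took 53.3% of the variance over the 8 libraries, auranofin 1, 3 and 4 scored -28.86, -35.15 and -39.63, whereas auranofin 2 scored 26.14, between the lowest vehicle library at 11.09 and the highest at 32.22. Its log2 levels correlated with the 4 vehicle libraries at a Pearson r of 0.975 to 0.987 across genes and with the other auranofin libraries at 0.940 to 0.958. The files hold no measure of drug exposure against which the label of that library could be checked. Each result below is therefore given over all 8 libraries, which is the comparison the labels define, and then without auranofin 2. That library was set aside because of its values, so the tests over the remaining 7 describe those 7 libraries.

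Library-wide features differed along the same line. Reads of ribosomal RNA genes made up 0.229% to 0.247% of the total in auranofin 1, 3 and 4, 0.0684% to 0.121% in vehicle and 0.0847% in auranofin 2. Genes of the mitochondrial genome took 4.28% to 5.33% of the reads in those 3 libraries against 6.15% to 7.11% in vehicle and 6.20% in auranofin 2. The reads in genes equalled 75.1% to 77.5% of the library size used in the FPKM of auranofin 1, 3 and 4, against 90.5% to 95.1% in vehicle and 97.8% in auranofin 2. On a TPM scale, where every library sums to the same total, the median change of all genes was 0.194 in place of -0.0166. The part of these features in the results was not tested. Muscle transcripts marked a second component, with Ckm, the muscle creatine kinase, at 85 FPKM in vehicle 4 and 50.8 FPKM in auranofin 4 and at most 0.645 FPKM elsewhere.

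**Figure D1:**
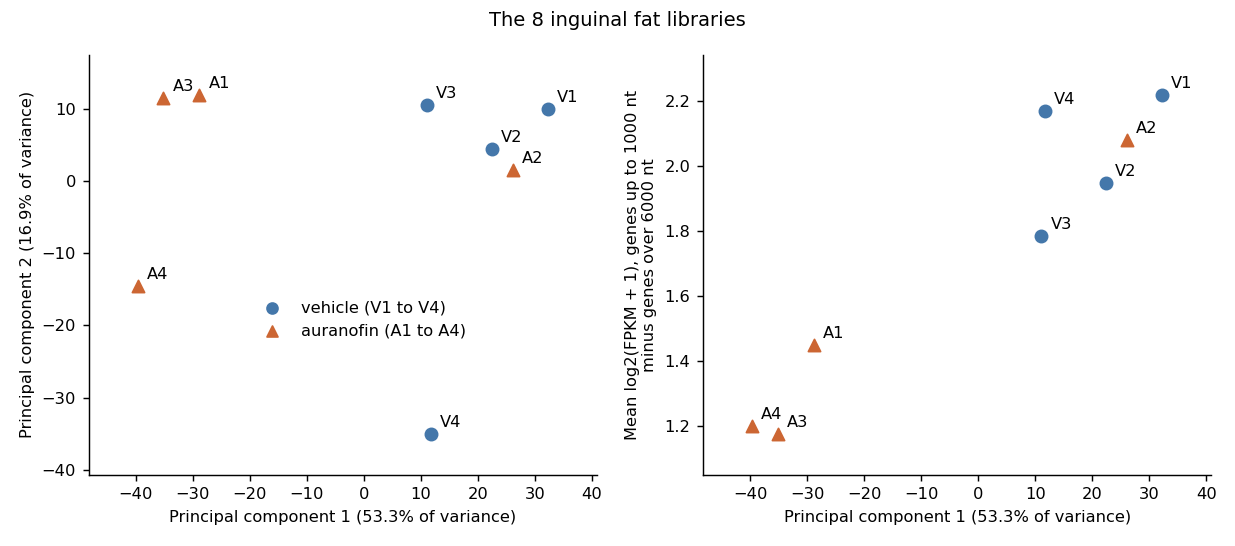
Left, scores of the 8 libraries on principal components 1 (53.3% of variance) and 2 (16.9%) of log2(FPKM + 1); right, component 1 against the mean log2(FPKM + 1) of protein-coding genes up to 1000 nt minus that of genes over 6000 nt. Circles are vehicle and triangles auranofin; auranofin 2 sits at 26.14 among the vehicle libraries on component 1, and auranofin 1, 3 and 4 sit at or below -28.86.

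Gene length followed the same division. Mean log2 levels of genes up to 1000 nt exceeded those of genes over 6000 nt by 1.17 to 1.45 in auranofin 1, 3 and 4, by 1.78 to 2.22 in vehicle and by 2.08 in auranofin 2. The median change over all 8 libraries was -0.515 for the 332 protein-coding genes up to 1000 nt and 0.0863 for the 3497 genes over 6000 nt. In auranofin 2 alone the same medians were 0.0889 and 0.00341. Many mitochondrial and ribosomal subunits have short transcripts, so counts for those groups are given below also with the length trend removed from each library.

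**Figure D2:**
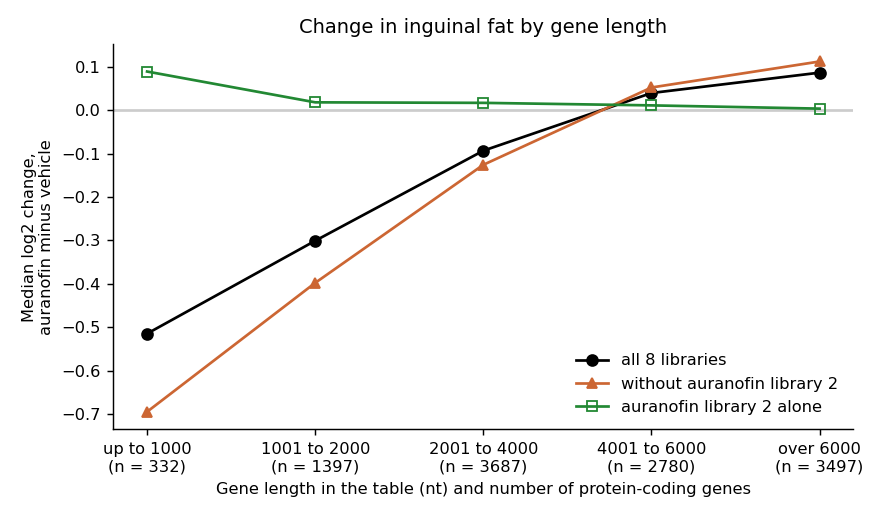
Median log2 change (auranofin minus vehicle) of protein-coding genes in 5 bins of gene length in nucleotides, for all 8 libraries, without auranofin 2, and for auranofin 2 alone against the vehicle mean. Over all 8 libraries the median goes from -0.515 in the shortest bin to 0.0863 in the longest, while auranofin 2 alone stays between 0.00341 and 0.0889.

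With all 8 libraries, limma with Benjamini-Hochberg adjustment called 0% of the genes at an adjusted p under 0.05, that is 0 of 13164, and no adjusted p was below 0.204. Without adjustment, at p under 0.05, 1207 genes (9.17%) were higher and 1688 (12.8%) lower with auranofin. The voom test on rebuilt reads also called 0 genes, whereas limma with sample quality weights, which gave auranofin 2 a weight of 0.150, called 6095, and 1 fit of all 32 libraries called 722. Groups did not overlap, library by library, in 365 genes (2.77%) that were higher and 317 (2.41%) that were lower. Without auranofin 2, limma called 2000 genes higher (15.1% of 13248 tested) and 2819 lower (21.3%). On the TPM scale the balance turned, with 5644 higher and 1028 lower. Of the 2817 lower genes that were also tested over 8 libraries, auranofin 2 lay within the vehicle range in 59.2%, beyond it on the same side in 8.84% and beyond it on the other side in 32%.

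The genes with the smallest p that kept the 2 groups apart in all 8 libraries included matrix and signalling genes. Pcolce2 (chr9:95637601-95698096, mm10), an enhancer of procollagen processing, measured 32, 39.97, 28.9 and 29.98 FPKM in vehicle 1 to 4 and 13.1, 19.3, 16.9 and 16.9 FPKM in auranofin 1 to 4. All 4 auranofin libraries, auranofin 2 among them, lay below all vehicle libraries, with a log2 change of -0.94 (SE 0.15, adjusted p = 0.204, limma). Thbs1 (chr2:118111876-118127133), which encodes the matrix glycoprotein thrombospondin 1, measured 11.5, 10.8, 13.3 and 12.4 FPKM in vehicle and 25.0, 23.7, 19.6 and 16.3 FPKM in auranofin. Here auranofin 2 was the second highest of the 8 libraries, and the change was 0.76 (SE 0.14). The same separation held for Bcar3, an adaptor of integrin signalling, at 47.8 to 58.2 FPKM in vehicle and 29.0 to 36.5 FPKM in auranofin, and for Pmepa1, a transforming growth factor beta target, at 119 to 160 FPKM and 62.1 to 100 FPKM. In the list of matrix genes Adamts1, a metalloprotease, was at 6.11 to 8.05 FPKM in vehicle and 8.32 to 11.9 FPKM in auranofin.

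Further genes of this kind were found in both directions. Among the higher ones, Cds2, a synthase of CDP-diacylglycerol for phospholipids, changed by 0.67 (SE 0.15), Abat, which breaks down GABA, by 0.62, Ubn1, a histone chaperone subunit, by 0.65, Spred2, a brake on ERK signalling, by 0.47, Dapk1, a death-associated kinase, by 0.43, Ap4m1 by 0.41, Pkd2l2 by 0.44 and Celf1, an RNA-binding regulator of splicing, by 0.37. Gm11084, a predicted gene, was listed at 0 FPKM in all 4 vehicle libraries and at 2.53, 0.769, 1.85 and 1.30 FPKM in auranofin. Among the lower ones, Smtnl2 changed by -1.24 (SE 0.22), Gtf2f2, a subunit of the general transcription factor TFIIF, by -0.70, Chac2, which degrades glutathione, by -0.54, Vcpkmt by -0.54, the predicted gene Gm6563 by -0.51 and Vhl, the ubiquitin ligase subunit that targets hypoxia-inducible factors, by -0.44. None of these passed the adjustment over all 8 libraries, and each passed it without auranofin 2.

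Transcripts of the respiratory chain were low in auranofin 1, 3 and 4 and high in auranofin 2. The mean log2 level of complex I was at most 6.30 in vehicle and 6.37 in auranofin 2, and auranofin 2 lay above the highest vehicle library for the other 4 complexes as well. The chain's complexes I to IV move electrons to oxygen and pump protons, and complex V uses the gradient to make ATP. Of 78 nuclear-encoded subunits, all of which passed the filter, 78 had a change below 0, against 6867 of the 13164 genes tested. At an unadjusted p under 0.05 (limma), 51 were lower, against 12.8% of all genes. The median change was -0.718, with -0.725 over 36 complex I subunits, -0.437 over 4 of complex II, -0.723 over 10 of complex III, -0.82 over 12 of complex IV and -0.667 over 16 of complex V. Of the 78, 0 kept the groups apart over 8 libraries, against 2.77% of all genes higher and 2.41% lower. Auranofin 2 lay above the vehicle mean in 68, against 6803 of the 13164 genes tested. Without auranofin 2, limma called 78 of 78 lower, at a median of -1.03, and 21.3% of all genes lower. Beside that count stand 55 with quantile normalisation, which called 13.7% of all genes lower, and 71 with the length trend removed, which called 17% lower. The median over 8 libraries was -0.36 with quantile normalisation and -0.438 on the TPM scale.

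Single subunits show the division. Cox4i1, a core regulatory subunit of cytochrome c oxidase, measured 714, 637, 632 and 622 FPKM in vehicle 1 to 4 and 291, 692, 239 and 241 FPKM in auranofin 1 to 4. Auranofin 2 was inside the vehicle range and the other 3 were below 300 FPKM. The change was -0.98 (SE 0.32) over 8 libraries and -1.34 (SE 0.11, adjusted p = 0.000658, limma) without auranofin 2. Ndufs4, a complex I subunit needed for its assembly, was at 45.7 to 58.0 FPKM in vehicle, at 18.8 to 22.5 FPKM in auranofin 1, 3 and 4 and at 48.3 FPKM in auranofin 2. Uqcrh, the hinge protein of complex III, was at 175 to 220 FPKM in vehicle, 69.0 to 96.9 FPKM in those 3 libraries and 205 FPKM in auranofin 2.

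Sequences upstream of 3 chain genes are shown because the chain moved together and its genes are known to share binding sites of the nuclear respiratory factor NRF1. Promoter windows of 250 bases before the gene start came from RefSeq (GRCm38.p6) and were matched by symbol for 65 of the 78 subunits. The 8-base NRF1 core GCATGCGC was found on either strand in 9 of the 65 (13.8%) and in 2.33% of 27025 promoters of the same length. For the element of oestrogen-related receptors, CAAGGTCA, the shares were 4.62% and 1.29%, and for the cyclic AMP response element TGACGTCA, which is its own reverse complement, 7.69% and 1.62%. A match is a run of letters, and binding was not measured. Each sequence below is written 5′ to 3′ on the gene's strand, with the matched bases in capitals. In Atp5l, a subunit of ATP synthase (chr9:44920743-44920992, minus strand), the first run of capitals is the NRF1 core, 240 to 233 bases before the start, and the second is the receptor element read from the opposite strand. In Ndufa6 of complex I (chr15:82354292-82354541, minus strand) the core lies 83 to 76 bases before the start, and in Sdhb of complex II (chr4:140961021-140961270, plus strand) 54 to 47 bases.
Atp5l: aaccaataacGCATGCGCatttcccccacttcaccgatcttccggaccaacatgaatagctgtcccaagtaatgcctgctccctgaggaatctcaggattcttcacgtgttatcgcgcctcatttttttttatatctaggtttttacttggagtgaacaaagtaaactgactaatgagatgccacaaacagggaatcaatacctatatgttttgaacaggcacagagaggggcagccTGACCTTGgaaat
Ndufa6: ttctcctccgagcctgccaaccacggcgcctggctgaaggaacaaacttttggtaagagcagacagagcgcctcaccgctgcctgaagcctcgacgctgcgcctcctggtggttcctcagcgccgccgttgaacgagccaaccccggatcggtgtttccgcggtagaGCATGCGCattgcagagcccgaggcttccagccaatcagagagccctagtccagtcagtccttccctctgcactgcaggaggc
Sdhb: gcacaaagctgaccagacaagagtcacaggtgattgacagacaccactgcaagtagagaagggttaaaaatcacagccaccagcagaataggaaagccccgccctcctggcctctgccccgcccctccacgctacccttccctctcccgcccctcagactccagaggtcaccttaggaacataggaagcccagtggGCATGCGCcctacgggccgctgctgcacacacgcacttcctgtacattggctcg

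All 78 chain subunits were below 0, and Ndufa6 was chosen after its values were seen. The values of these 3 genes are therefore a description. Their unadjusted p was 0.0098 to 0.0245 (limma), and that of other carriers of the core reached 0.222, in Atp5k. Atp5l measured 25.8, 22.7, 24.4 and 24.2 FPKM in vehicle and 12.0, 24.9, 9.83 and 10.1 FPKM in auranofin, a change of -0.83 (SE 0.26). Ndufa6 was at 53.2 to 82.1 FPKM in vehicle and at 38.9, 61, 28.3 and 31.2 FPKM in auranofin. Sdhb, the iron-sulfur subunit of succinate dehydrogenase, was at 83.4 to 100 FPKM and at 54.9, 95.5, 40.2 and 40.9 FPKM. In all 3 genes auranofin 2 was inside the vehicle range and the other auranofin libraries were below it. By comparison, the NRF1 core was found in 2 of 34 matched promoters of the mitochondrial ribosome (5.88%) and 0 of 38 of the cytosolic ribosome, lists that were lower as well. The receptor element was found in 5.88% and 0% of them, and the cyclic AMP response element in 2.94% and 7.89%. In 24 matched promoters of immediate-early genes the cyclic AMP response element stood at 8.33% and the other elements at 0%. So the shares of those elements were not particular to the chain.

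Messenger RNAs of the mitochondrial genome were lower too. All 13 had a change below 0, at a median of -0.693, 9 of them at an unadjusted p under 0.05 (limma), against 12.8% of all genes. Without auranofin 2, all 13 were called lower, against 21.3% of all genes. That count was 7 with the length trend removed, against 17%, and 8 with quantile normalisation, against 13.7%. mt-Nd1, a complex I core subunit, was at 6731 to 7726 FPKM in vehicle and at 3465, 7286, 4309 and 4443 FPKM in auranofin. mt-Atp6, a proton-channel subunit of ATP synthase, measured 456, 175, 179 and 176 FPKM in vehicle and 37.3, 172, 43.3 and 43.7 FPKM in auranofin. It was the single member whose groups did not overlap, by a narrow margin at auranofin 2, and its change was -1.90 (SE 0.51). Of all genes 2.41% were lower without overlap. mt-Co2, the copper-binding subunit of cytochrome c oxidase, changed by -1.60 and mt-Nd3 by -1.42. Reads of mt-Atp6, mt-Co2 and mt-Nd3 can be split with near-identical nuclear copies of mitochondrial DNA, so their values are uncertain, and their levels were far below that of mt-Nd1.

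The machinery that builds mitochondria divided in 2 ways. Of 40 proteins of the mitochondrial ribosome, which translates the 13 messenger RNAs above, all 40 were below 0 at a median of -0.577, and 4 were lower without overlap, against 2.41% of all genes. Without auranofin 2, 38 were called lower, 33 with the length trend removed and 34 with quantile normalisation. The shares of all genes called lower were 21.3%, 17% and 13.7%. Mrpl1 measured 8.5, 8.65, 8.19 and 5.98 FPKM in vehicle and 4.16, 5.83, 4.01 and 4.33 FPKM in auranofin, so that auranofin 2 was just under the lowest vehicle library. Mrpl33 changed by -0.76 and Mrps18c by -0.78, also without overlap, as did Ndufaf6, a complex I assembly factor, at 7.28 to 9.03 FPKM in vehicle and 3.70 to 6.06 FPKM in auranofin. The regulators of mitochondrial biogenesis did not follow: their median over 11 measured genes was -0.0722. Polg, the mitochondrial DNA polymerase, was at 3.11 to 3.72 FPKM in vehicle and 4.01 to 4.99 FPKM in auranofin, and Gabpa, a transcription factor for chain genes, at 4.87 to 5.49 FPKM and 5.62 to 6.66 FPKM. Both were higher without overlap. Ppargc1a, the coactivator PGC-1alpha, was at 0.531 to 1.00 FPKM and 0.490 to 0.581 FPKM (change -0.18, SE 0.12), and Tfam, which packages mitochondrial DNA, changed by -0.24 on FPKM and by 2.5e-05 on the TPM scale.

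Fuel-oxidising enzymes lay below 0 as a group. Of 17 genes of the tricarboxylic acid cycle and pyruvate dehydrogenase, 17 were below 0 at a median of -0.426, and of 21 genes of mitochondrial fatty acid oxidation, 19 were, at -0.419. With quantile normalisation these medians were -0.0522 and -0.118. Without auranofin 2, limma called 13 of the 17 and 18 of the 21 lower, and 5 and 7 with quantile normalisation added, against 21.3% and 13.7% of all genes. With the length trend removed these counts were 14 and 16, against 17%. Fh1, fumarate hydratase, was at 48.7 to 61.1 FPKM in vehicle and at 31.6, 52.3, 27.6 and 27.8 FPKM in auranofin. Acadl, the long-chain acyl-CoA dehydrogenase, was at 272 to 305 FPKM and at 168, 301, 160 and 164 FPKM. Pdhb, a pyruvate dehydrogenase subunit, changed by -0.60 (SE 0.18).

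**Figure D3:**
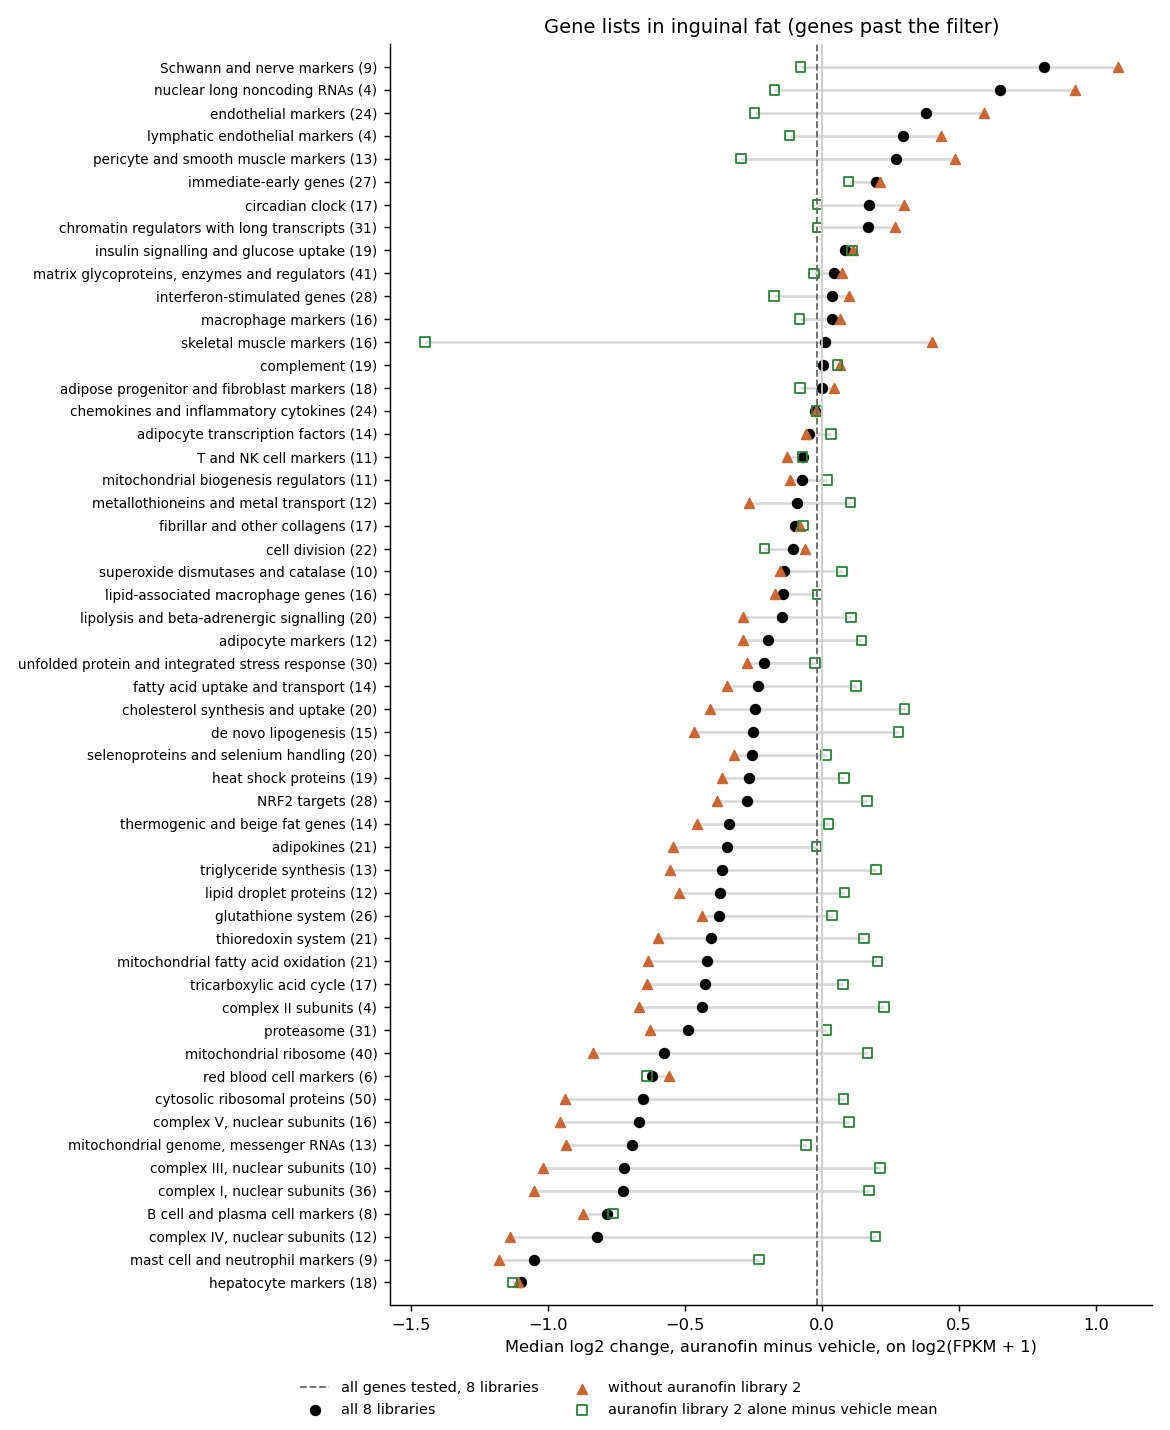
Median log2 change (auranofin minus vehicle) of each gene list, with the number of genes past the filter in brackets; circles are all 8 libraries, triangles leave out auranofin 2, and open squares are auranofin 2 alone against the vehicle mean. For complex I the circle is at -0.725, the triangle at -1.05 and the square at 0.172; the dashed line is the median of all genes tested, -0.0166.

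Protein synthesis and breakdown genes were lower in the same libraries. All 50 cytosolic ribosomal protein genes had a change below 0, at a median of -0.653, 37 of them at an unadjusted p under 0.05, against 12.8% of all genes. The groups did not overlap in 2 of the 50, a share near the 2.41% of all genes. Without auranofin 2, 49 of 50 were called lower, 44 with the length trend removed and 24 with quantile normalisation. The shares of all genes called lower were 21.3%, 17% and 13.7%. Rps24 was at 57.5 to 92.2 FPKM in vehicle and at 40.2, 58.7, 34.9 and 37.4 FPKM in auranofin, and Rpl3 at 123 to 148 FPKM and at 96.2, 135, 85.2 and 86.6 FPKM. Such genes have many processed copies in the genome, so single values are uncertain. Of 31 proteasome subunits all 31 were below 0, at a median of -0.488, and 25 had an unadjusted p under 0.05 (limma). Without auranofin 2, 28 were called lower, 23 with the length trend removed and 15 with quantile normalisation, beside the same shares of all genes. Psmd12, a regulatory particle subunit, was lower without overlap at 27.6 to 36.8 FPKM in vehicle and 22.3, 27.3, 22.3 and 21.9 FPKM in auranofin. Psmb2, a catalytic core subunit, was at 82.7 to 95.3 FPKM and at 59.8, 82.7, 57.9 and 56.4 FPKM, and Psmd4, a ubiquitin receptor, changed by -0.65. The medians with quantile normalisation were -0.224 for the ribosome and -0.199 for the proteasome.

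Lipid droplet and lipolysis genes held members that were lower in all 4 auranofin libraries. Hilpda (chr6:29272488-29275446), a hypoxia-induced droplet protein that inhibits the lipase ATGL, measured 51.1, 57.5, 33.2 and 54.0 FPKM in vehicle and 17.7, 32.6, 13.9 and 8.77 FPKM in auranofin. Auranofin 2 was just below vehicle 3 and the other 3 were lower still, with a change of -1.49 (SE 0.34) over 8 libraries and -1.81 (SE 0.25, adjusted p = 0.00211, limma) without auranofin 2. G0s2, another ATGL inhibitor, measured 663, 430, 428 and 364 FPKM in vehicle and 265, 343, 235 and 226 FPKM in auranofin (change -0.80, SE 0.22), again with no overlap. Hcar2, the anti-lipolytic receptor for hydroxybutyrate and niacin, was at 9.91 to 14.9 FPKM and 6.70 to 9.40 FPKM. Adcy6, an adenylate cyclase that makes cyclic AMP, was the reverse, at 14.1 to 19.3 FPKM and 19.96 to 24.3 FPKM, and Aqp7, the glycerol channel of fat cells, at 79.1 to 89.9 FPKM and 92.9 to 98.5 FPKM. Over the 20 measured genes of lipolysis and adrenergic signalling, 6 were above 0 and 14 below, and the median of -0.145 became 0.17 with quantile normalisation and 0.129 on the TPM scale.

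Among the 12 measured droplet proteins the median was -0.373. Plin2, a droplet coat protein, changed by -0.73 (SE 0.30), with auranofin 2 at 367 FPKM, above 3 of the vehicle libraries. Bscl2, the seipin gene needed to form droplets, changed by -0.74, Agpat2, an acyltransferase of triglyceride synthesis, by -0.90 and Tmem120a by -0.85, each with auranofin 2 inside the vehicle range. De novo lipogenesis, which makes fatty acids from glucose, divided among its regulators. Thrsp, a cofactor of lipogenic enzymes, measured 269, 172, 239 and 165 FPKM in vehicle and 136, 128, 73.0 and 102 FPKM in auranofin, with no overlap and a change of -0.95 (SE 0.24). Srebf1, the insulin-responsive lipogenic transcription factor, was at 47.7 to 52.8 FPKM and at 36.9, 49.4, 34.9 and 32.4 FPKM. Mlxipl, which encodes the carbohydrate-responsive factor ChREBP, was higher in the 3 other libraries, at 6.89 to 9.17 FPKM in vehicle and 19.1, 8.29, 15.6 and 12.6 FPKM in auranofin (change 0.67, SE 0.22). The median over 15 lipogenic genes was -0.253, and 0.000439 with quantile normalisation. Hmgcs1, of cholesterol synthesis, changed by -0.65 (SE 0.19).

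**Figure D4:**
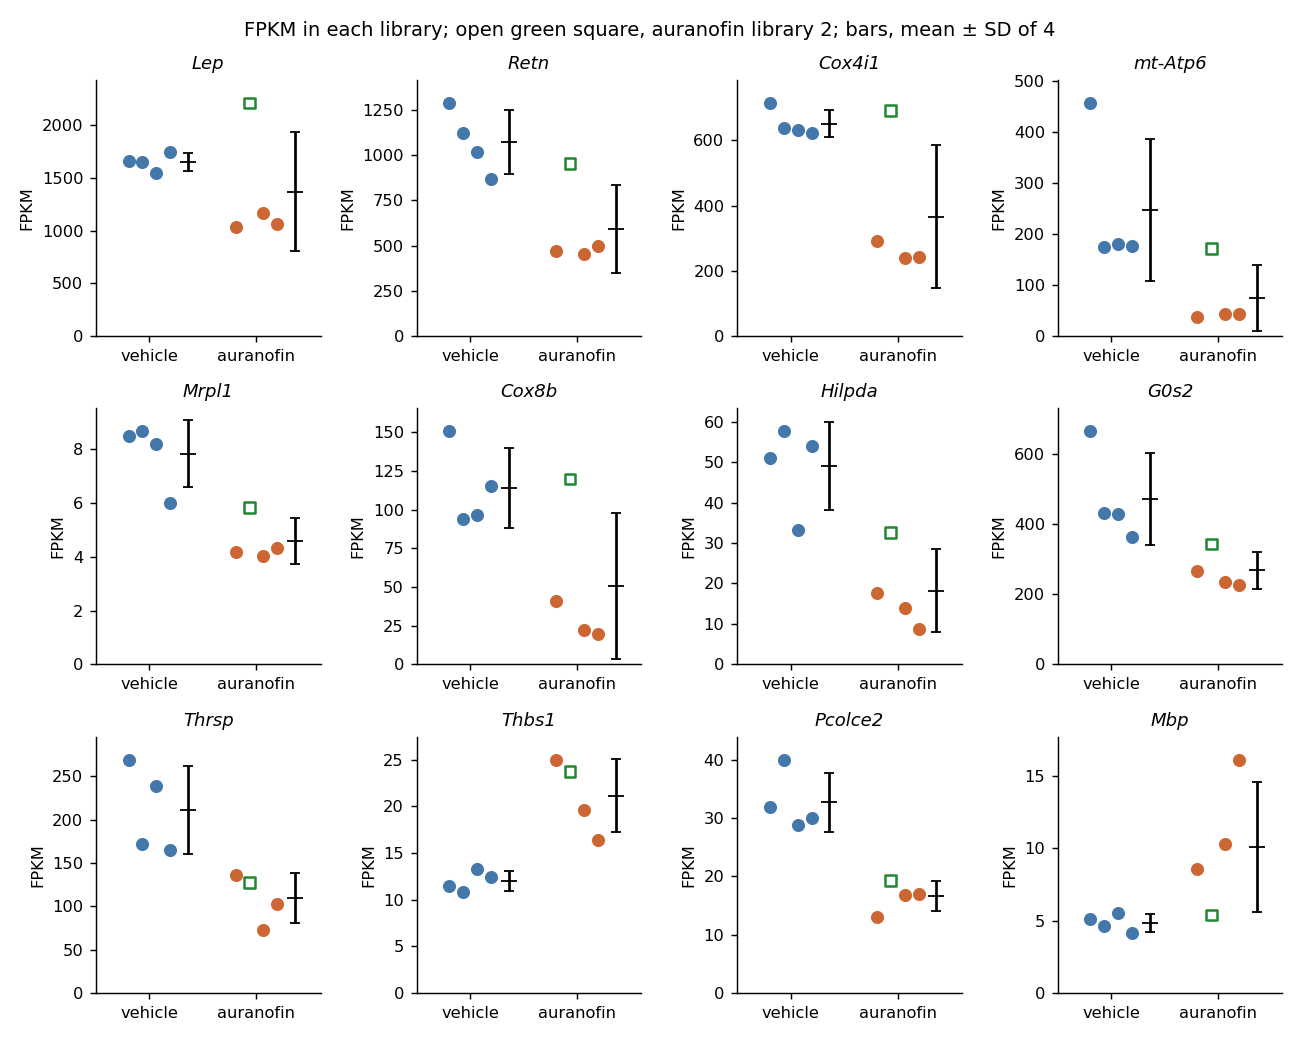
FPKM of 12 genes in each library, vehicle in blue and auranofin in orange, with auranofin 2 as an open green square and the mean ± SD of 4 libraries as a bar. For Lep, Retn, Cox4i1 and Cox8b the open square lies apart from the other auranofin libraries, whereas for Thrsp, Thbs1 and Pcolce2 it lies with them.

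Leptin, resistin and adiponectin transcripts were lower in auranofin 1, 3 and 4 than in any vehicle library. Lep (chr6:29060220-29073877), the leptin gene, measured 1663, 1647, 1548 and 1747 FPKM in vehicle and 1034, 2211, 1168 and 1065 FPKM in auranofin. Auranofin 2 was the highest of the 8 libraries and the other 3 were the lowest. An exact two-sided permutation test gave p = 0.200 over 4 against 4, where 0.0286 is the smallest possible, and the log2 change of -0.35 (SE 0.26) became 0.032 with quantile normalisation. Retn, resistin, measured 1288, 1120, 1017 and 866 FPKM in vehicle and 469, 954, 451 and 496 FPKM in auranofin, a change of -0.92 (SE 0.27), and -1.17 (SE 0.14) without auranofin 2. Adipoq, adiponectin, was at 2792 to 3040 FPKM and at 2168, 3251, 1716 and 1946 FPKM (change -0.41, SE 0.24), and its direction turned to 0.151 with quantile normalisation. Cfd, adipsin, varied widely within vehicle, from 773 to 2302 FPKM, around auranofin levels of 1132 to 1720 FPKM. Fgf21, a starvation hormone, was lower without overlap, at 1.19 to 3.44 FPKM in vehicle and 0.659 to 1.15 FPKM in auranofin. Igf1, the growth factor, was at 19.2 to 27.3 FPKM and at 14.7, 20.6, 15.6 and 16.2 FPKM. Over 21 adipokines 18 were below 0 at a median of -0.345, which was -0.0674 with quantile normalisation and -0.126 on the TPM scale.

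Summed markers of fat cells were lower in auranofin 1, 3 and 4 than in any vehicle library, and so were those of some other cell types. The summed FPKM of 12 adipocyte markers, Lep, Adipoq, Retn and Cfd included, was 13294 to 15732 in vehicle, 8980 to 10211 in auranofin 1, 3 and 4 and 16198 in auranofin 2. Its part in the adipokine, lipid and mitochondrial values was not tested. Progenitor and fibroblast markers summed to 1442 to 1683 FPKM in vehicle, 1104 to 1156 in auranofin 1, 3 and 4 and 1478 in auranofin 2. Yet 9 of these 18 markers were above 0 and 9 below, at a median change of 0.000477. That median was 0.206 with quantile normalisation and 0.188 on the TPM scale. Sums of lipid-associated macrophage, B-cell, mast cell and neutrophil, and hepatocyte markers were also lower in auranofin 1, 3 and 4 than in any vehicle library. Sums of the remaining marker lists overlapped. A few members can carry a sum. Lpl and Cd36, also listed for fatty acid uptake, averaged 1053 and 1375 FPKM within the lipid-associated macrophage list. Of its 16 members 8 were above 0 and 8 below. Ighm took 621 to 749 FPKM of the B-cell sum of 628 to 974 FPKM in vehicle. In bulk tissue fewer cells of a type and less RNA per cell cannot be told apart. The median change of the 12 adipocyte markers was -0.198, but 0.208 with quantile normalisation and 0.0853 on the TPM scale.

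Of 14 measured genes of thermogenic and beige fat 11 were below 0 and 3 above, at a median of -0.339 that was -0.173 with quantile normalisation and -0.131 on the TPM scale. Without auranofin 2, limma called 7 lower and 2 higher, against 21.3% and 15.1% of all genes. Cox8b, the cytochrome oxidase subunit of brown and beige fat and of muscle, measured 151, 94.2, 96.9 and 115 FPKM in vehicle and 41.0, 120, 22.3 and 19.4 FPKM in auranofin. Its change was -1.52 (SE 0.50) over 8 libraries and -2.06 (SE 0.26) without auranofin 2. Elovl3, a fatty acid elongase of cold-activated fat, was at 2.13 to 4.33 FPKM and at 0.643, 3.55, 0.569 and 0.240 FPKM. P2rx5, a purinergic receptor on brown and beige cells, was lower in all 4 auranofin libraries, at 2.58 to 3.68 FPKM and 1.64 to 2.11 FPKM. Cidea, a droplet-fusing protein, ranged from 9.58 to 25.9 FPKM in vehicle and from 3.23 to 20.7 FPKM in auranofin (change -0.77, SE 0.50). Ucp1, the uncoupling protein that defines thermogenic fat, stayed at or under 0.286 FPKM in every library and did not pass the filter. Adrb3, the fat-specific adrenergic receptor, was at 18.7, 15.8, 15.1 and 8.77 FPKM in vehicle and 44.0, 23.6, 13.0 and 29.6 FPKM in auranofin (change 0.80, SE 0.35), with overlap at auranofin 3.

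The enzymes that auranofin is known to inhibit were measured next. Txnrd1, the cytosolic thioredoxin reductase, was at 8.94, 9.65, 8.88 and 9.62 FPKM in vehicle and 8.84, 10.5, 10.03 and 9.28 FPKM in auranofin. The groups overlapped, and the change of 0.05 (SE 0.09) turned to -0.023 once the length trend was removed. Txnrd2, the mitochondrial form, was at 7.06 to 8.05 FPKM in vehicle and at 4.91, 8.56, 4.32 and 4.72 FPKM in auranofin. Auranofin 2 was again the highest library, and without it Txnrd2 changed by -0.59 (SE 0.08, adjusted p = 0.00193, limma). Of the 21 genes of the thioredoxin system 19 were below 0, at a median of -0.405 that was -0.156 with quantile normalisation and -0.145 on the TPM scale. Glrx3, an iron-sulfur glutaredoxin, was at 42.9 to 53.9 FPKM and at 26.3, 45, 26.2 and 28.1 FPKM, Prdx1, a peroxiredoxin, changed by -0.55 and Msra, which repairs oxidised methionine, by -0.58. Of 20 genes of selenoproteins and selenium handling 16 were below 0 at a median of -0.254, and on the TPM scale the median was 0.00151. Sephs2, the selenophosphate synthetase that supplies selenium to them, was lower without overlap, at 20.7 to 30.1 FPKM in vehicle and 11.4 to 19.9 FPKM in auranofin, and Selenof changed by -0.52.

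Most stress-response genes lay below 0, with medians near 0 under other scalings. Over 28 targets of NRF2, the factor that responds to electrophiles, 10 were above 0 and 18 below, at a median of -0.272 that was -0.0117 with quantile normalisation. Nqo1, a quinone reductase used as the usual readout of NRF2, measured 4.04, 5.09, 4.07 and 4.35 FPKM in vehicle and 5.06, 2.70, 5.26 and 5.45 FPKM in auranofin. Auranofin 2 was the lowest of the 8 libraries. Hmox1, haem oxygenase, was at 22.6 to 81.8 FPKM and 22.6 to 43.1 FPKM (change -0.59, SE 0.37). Ephx1, an epoxide hydrolase, was higher without overlap, at 26.3 to 36.2 FPKM in vehicle and 37.7 to 51.9 FPKM in auranofin, and Akr1b8, an aldose reductase relative, was lower, at 26.0 to 32.5 FPKM and 18.6 to 23.5 FPKM. Mafg, a partner of NRF2, changed by 0.46 and Gstm5, a glutathione transferase, by -0.49. Metallothioneins bind heavy metals and are induced by them. Mt1 ranged from 74.9 to 121 FPKM in vehicle and from 41.6 to 158 FPKM in auranofin, and its change of -0.04 (SE 0.37) turned to 0.292 with quantile normalisation. Mt2 was at 0.451 to 1.87 FPKM and 0.0723 to 2.44 FPKM. Slc39a10, a zinc importer, was higher without overlap (change 0.38, SE 0.09), and Atox1, a copper chaperone, changed by -0.85 with auranofin 2 above every vehicle library. Manf, of the unfolded protein response, was lower without overlap, at 12.2 to 15.3 FPKM and 9.12 to 11.9 FPKM. Of 30 genes of that response 26 were below 0, at a median of -0.212 that turned to 0.00774 with quantile normalisation and 0.0399 on the TPM scale. Of 19 heat shock genes 16 were below 0, at a median of -0.267 that turned to 0.0327 and 0.0147 under those scalings. Hspa1b went the other way, at 0.880 to 0.947 FPKM in vehicle and 1.14 to 1.70 FPKM in auranofin.

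Long messenger RNAs of chromatin regulators, and nuclear noncoding RNAs, were mostly higher in auranofin 1, 3 and 4. Only 4 of the noncoding RNAs passed the filter, and all 4 were above 0, at a median of 0.65. Of 31 chromatin regulators with long transcripts 29 were above 0, at a median of 0.167, against 6297 of the 13164 genes tested. Without auranofin 2, 13 of 31 were called higher, against 15.1% of all genes, and 7 once the length trend was removed, not far from the 15.3% of all genes then called higher. With quantile normalisation 12 of the 31 were called higher, against 1914 of 13248 genes. Kmt2d, a histone H3K4 methyltransferase, was at 1.11, 1.14, 1.66 and 1.72 FPKM in vehicle and 3.91, 1.2, 3.71 and 3.69 FPKM in auranofin. Baz2a, a silencer of ribosomal DNA, was at 3.25 to 4.52 FPKM and at 6.58, 4.03, 7.24 and 7.86 FPKM. Neat1, the RNA scaffold of paraspeckles, measured 21.3, 17.2, 27.1 and 32.1 FPKM in vehicle and 120, 23.0, 55.6 and 62.8 FPKM in auranofin (change 1.2, SE 0.43). For Kmt2d, Baz2a and Neat1 alike, auranofin 2 lay within the vehicle range and the other auranofin libraries above it. Per2, a clock repressor, was at 1.31 to 2.69 FPKM and at 5.87, 2.49, 4.71 and 4.58 FPKM (change 0.97, SE 0.22), while the clock list as a whole had 10 of 17 genes above 0. The immediate-early list had 21 of 27 above 0 at a median of 0.196. Fosb, an activity-induced transcription factor, was at 0.383 to 0.498 FPKM in vehicle and at 4.67, 4.52, 1.80 and 0.280 FPKM in auranofin, so that auranofin 2 was high and auranofin 4 was not. Btg2, an antiproliferative early gene, changed by 0.50 (SE 0.16).

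Markers of other cell types varied between libraries. Schwann cell and nerve genes were higher in auranofin 1, 3 and 4, with 8 of 9 measured members above 0 at a median of 0.81. That median was 0.361 without auranofin 4 and 0.27 without vehicle 4 and auranofin 4, the muscle-rich pair. Mbp, myelin basic protein, measured 5.09, 4.62, 5.53 and 4.14 FPKM in vehicle and 8.58, 5.39, 10.3 and 16.1 FPKM in auranofin, a change of 0.84 (SE 0.26). Prx, periaxin, was at 0.181 to 0.717 FPKM and at 2.11, 0.352, 2.58 and 5.88 FPKM. In both genes auranofin 2 lay inside the vehicle range and the other auranofin libraries above it. The summed FPKM of 12 nerve markers overlapped, at 87 to 108 in vehicle, 101 to 170 in auranofin 1, 3 and 4 and 90.7 in auranofin 2. Its part in other results was not tested.

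Of 24 endothelial markers 19 were above 0 at a median of 0.38, but 3 were higher at an unadjusted p under 0.05, against 9.17% of all genes, and auranofin 2 lay below the vehicle mean in 23. Without auranofin 2, limma called 16 higher and 1 lower, against 15.1% and 21.3% of all genes. Pecam1, an endothelial junction protein, was at 26.6 to 36.0 FPKM in vehicle and at 51.6, 22.8, 62.8 and 51.1 FPKM in auranofin, with auranofin 2 the lowest library of all. Cdh5, VE-cadherin, was at 35.8 to 51.9 FPKM and at 73.7, 34.4, 92.1 and 68.5 FPKM, Flt1, a VEGF receptor, changed by 0.62 (SE 0.22) and Notch3, a pericyte receptor, by 0.85 (SE 0.32). The summed endothelial level nevertheless overlapped, at 985 to 1230 FPKM in vehicle and 902 to 1097 FPKM in auranofin 1, 3 and 4. Of 9 measured mast cell and neutrophil genes 7 were below 0 at a median of -1.05, with 1 of the 12 listed at 0 in all libraries. Without auranofin 2, 3 were called lower and 1 higher, against 21.3% and 15.1% of all genes. With the length trend removed 1 was called lower, against 17%, and with quantile normalisation 4, against 13.7%. Mcpt4, a mast cell protease, was at 8.77, 22.4, 34.2 and 33.1 FPKM in vehicle and 5.09, 13.0, 6.45 and 9.22 FPKM in auranofin, Cpa3, mast cell carboxypeptidase, at 4.25 to 12.5 FPKM and 1.70 to 5.52 FPKM, and S100a8, a neutrophil alarmin, at 13.4 to 28.8 FPKM and 2.39, 25.8, 4.72 and 7.62 FPKM. In Mcpt4, Cpa3 and S100a8 the groups overlapped. Of 16 measured macrophage markers 9 were above 0 and 7 below, at a median of 0.0368. Adgre1, a macrophage surface receptor, was at 5.04, 12.5, 4.26 and 7.86 FPKM in vehicle and 7.39, 8.03, 9.38 and 13.4 FPKM in auranofin (change 0.39, SE 0.30), also with overlap.

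Some markers belonged to 1 library. Vehicle 1 held Cd79a, a B-cell receptor subunit, at 17.5 FPKM against 0.619 FPKM or less in all others, and Alb, albumin, at 217 FPKM against 9.74 to 25.0 FPKM. The median of the B-cell list was -0.785 with that library and -0.496 without it, and that of the hepatocyte list -1.10 and -0.649. Hp, haptoglobin, which fat cells also make, was at 1893 to 3018 FPKM in vehicle and at 897, 1940, 981 and 1471 FPKM in auranofin. Ighm, the IgM heavy chain, was at 621 to 749 FPKM and at 315, 716, 362 and 372 FPKM. Markers of mammary and skin epithelium summed to at most 6.57 FPKM, with 4 of 17 at 0 in every library. Immune signalling genes were mixed: Stat2, an interferon signal transducer, changed by 0.51 (SE 0.15), Irf7, an interferon-induced factor, by -0.29 without overlap, Cxcl12, a stromal chemokine, by 0.64 (SE 0.25) and C7, a terminal complement component, by 1.06 (SE 0.42).

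Auranofin 2 also had transcripts of its own, chosen as those farthest beyond the other 7 libraries. Rpl39l, a ribosomal protein paralogue, was at 54.8 FPKM in it and at 1.23 to 8.25 FPKM in the others. Tnfrsf12a, the TWEAK receptor, was at 40.6 FPKM against 6.26 to 26.0 FPKM. On the low side, Mndal, an interferon-inducible gene, was at 2.49 FPKM against 4.79 to 10.4 FPKM, Rgs5, a pericyte regulator, at 28.6 FPKM against 45.6 to 116 FPKM and Cd200, an immune checkpoint ligand, at 2.64 FPKM against 4.71 to 11.1 FPKM. These 5 genes were picked by the distance itself, so their values are a description of that library.

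The inguinal response was set against the other 2 fat depots by tests of the difference in change, each over 16 libraries. Against eWAT, 0% of 13670 genes passed in either direction, with a smallest adjusted p of 0.177 (limma interaction). Limma with sample quality weights called 4083, and leaving out iWAT auranofin 2 gave 2036. Retn was among the genes with the smallest p: it was lower with auranofin in iWAT, at 592 ± 242 against 1073 ± 178 FPKM (SD, n = 4 each), and higher in eWAT, at 378 ± 130 against 168 ± 57.2 FPKM, a difference in change of -2.08 (SE 0.443, adjusted p = 0.177, limma). Ndufaf6 differed by -0.983 (SE 0.213) in the same sense. Pcyt1a, the rate-limiting enzyme of phosphatidylcholine synthesis, was at 7.20 ± 0.509 against 5.42 ± 0.558 FPKM in iWAT and 6.67 ± 0.369 against 8.68 ± 0.921 FPKM in eWAT (n = 4 each), and Adam19, a membrane metalloprotease, differed by 1.08 (SE 0.232).

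Against BAT, 3 of 13372 genes (0.0224%) differed with the iWAT change higher and 0 (0%) with it lower. Fosl1, an AP-1 transcription factor, was at 1.51 ± 0.410 FPKM with auranofin and 0.684 ± 0.454 with vehicle in iWAT, and at 2.78 ± 0.493 and 9.24 ± 2.64 FPKM in BAT (SD, n = 4 each). The difference in change was 2.0 (SE 0.289, adjusted p = 0.0397, limma). Csf1, the macrophage growth factor, was at 6.84 ± 1.06 against 5.0 ± 0.607 FPKM in iWAT and 4.84 ± 2.32 against 14.5 ± 2.64 FPKM in BAT, a difference of 1.85 (SE 0.286, adjusted p = 0.0467). Irgm2, an interferon-inducible GTPase, differed by 0.853 (SE 0.126, adjusted p = 0.0397). In BAT alone the changes of Fosl1, Csf1 and Irgm2 were -1.41, -1.47 and -0.529, and the iWAT changes of 0.60, 0.38 and 0.32 did not pass on their own. The count rested on single libraries: leaving out 1 of the 16 gave between 0 and 3664 genes, the latter without iWAT auranofin 2.

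Gene lists in the 3 depots are given side by side, with no library shared between them. In eWAT, auranofin 1 and vehicle 2 stood apart: the excess of short over long genes was 2.10 in auranofin 1 (1.6 to 1.62 in the other auranofin libraries) and 0.978 in vehicle 2 (1.39 to 1.56 in the other vehicle libraries). The median change of complex I subunits was -0.725 in iWAT, 0.424 in eWAT and 0.252 in BAT, and that of the mitochondrial ribosome -0.577, 0.374 and 0.222. Droplet proteins stood at -0.373, 0.439 and 0.188. Without those 2 libraries the eWAT medians were 0.179 for complex I, 0.113 for the mitochondrial ribosome and 0.0389 for droplet proteins. For complexes III, IV and V they went from 0.452, 0.406 and 0.266 to 0.114, 0.0281 and 0.0363. Collagens stood at -0.0967 in iWAT against -0.634 in eWAT and -0.962 in BAT, and lipid-associated macrophage genes at -0.143, -0.922 and -0.586. The iWAT median of collagens turned to 0.245 with quantile normalisation and 0.181 on the TPM scale, and that of the macrophage genes to 0.0721 and 0.127, and to 0.0326 without vehicle 2. Without the 2 eWAT libraries the eWAT medians were -0.54 and -1.06. The 24 endothelial markers stood at 0.38, 0.436 and 0.0973. The difference between depots was tested for single genes, as above, and not for lists.

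**Figure D5:**
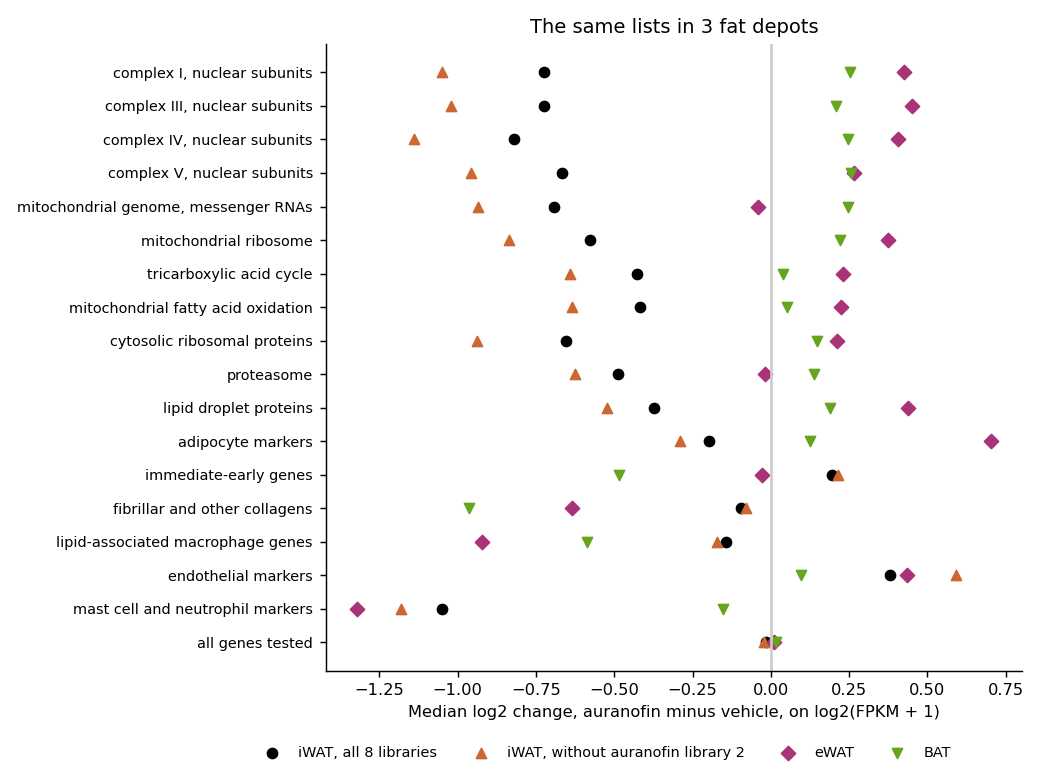
Median log2 change (auranofin minus vehicle) of 17 gene lists and of all genes tested in iWAT with all 8 libraries, in iWAT without auranofin 2, in eWAT and in BAT. For complexes I, III, IV and V the iWAT medians lie between -1.14 and -0.667 and the eWAT and BAT medians, over all libraries of each depot, above 0.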

How the data were processed

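Total RNA was sequenced from libraries of a kit that keeps no strand. Per the submitters' processing notes, build mm10 was used with CASAVA, featureCounts (1.5.0-p3), STAR (2.6.1d) and DESeq2 (1.20.0), and their roles and settings are not given in the sources used here. The authors deposited 1 table of FPKM per gene and library. Whole reads were recovered from the deposited FPKM (to within 0.1 read) for 100% of values, and give the depths; how the library size inside the FPKM was scaled is not given in the sources used here.

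Groups came from the sample titles. Genes averaging at least 0.5 FPKM across the 8 inguinal libraries were tested on log2(FPKM + 1) with limma 3.58.1 (R 4.3.3), an intensity trend and Benjamini-Hochberg adjustment over all genes, threshold 0.05. Interactions used 16 libraries and the same filter. Lep also had an exact permutation test. Lists are described by counts and medians. Alternatives were other pseudocounts, filters and scalings, voom on rebuilt reads, sample quality weights, a replicate block, and leaving out each library; removal of the length trend (lowess), leaving out the muscle-rich pair, the combinations with auranofin 2 left out and eWAT without 2 libraries were chosen after seeing the data.

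The members and lists were chosen with earlier results of these data known. Named genes were a fixed set, the 10 per direction with the smallest p among protein-coding genes whose groups did not overlap, the 3 with the smallest p and the first 2 of each list, the genes in which auranofin 2 lay farthest out, and the genes with the smallest interaction p. Ndufa6 was chosen for its promoter motif after its values were seen. The limma script was tested on simulated data. The symbols Asip, Adipsin, Norad, Faim3 and Ahsp of the lists matched no row. A listed gene is not reported here, and its list is given without it. Promoter windows came from RefSeq (GRCm38.p6). Precision is limited by 4 libraries a group and, for low genes, by counting error.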

Additional observations from a re-analysis of the deposited data

Results flagged for a closer look

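Of 294 groups of 4 libraries examined, 36 had 1 library set apart from the other 3 by Dixon's criterion, which chance flags in about 5% of groups, and 25 of the 36 were auranofin 2. Auranofin 2 was already known to stand apart, and some of these genes were named for its distance or for a small p. The counts are therefore a description and no test, also beside the chance share. In auranofin 2 the library-wide values were 97.8% for reads in genes against the library size in the FPKM (75.1% to 77.5% in the other 3), 0.0847% for ribosomal RNA genes (0.229% to 0.247%) and 19949 genes with reads (21667 to 21924).

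Genes in which auranofin 2 lay above the other auranofin libraries were Lep at 2211 FPKM, Retn at 954 FPKM, mt-Atp6 at 172 FPKM, mt-Co2 at 178 FPKM, mt-Nd3 at 123 FPKM, Acadl at 301 FPKM and Pdhb at 69.1 FPKM. Glrx3 at 45 FPKM, Gstm5 at 25.4 FPKM, Psmd12 at 27.3 FPKM, Psmb2 at 82.7 FPKM, Psmd4 at 54.0 FPKM, Gtf2f2 at 10.6 FPKM, Bscl2 at 75.0 FPKM and Hmgcs1 at 116 FPKM were set apart in the same way. Below the other 3 it held Nqo1 at 2.70 FPKM, Kmt2d at 1.2 FPKM, Kmt2a at 0.840 FPKM, Robo4 at 7.81 FPKM, Xdh at 15.6 FPKM, Abcc4 at 1.14 FPKM and Mndal at 2.49 FPKM.

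Single vehicle libraries were set apart in other genes. Vehicle 1 was high for mt-Atp6 at 456 FPKM, Cox4i1 at 714 FPKM, Sdhb at 100 FPKM, Cd79a at 17.5 FPKM and Alb at 217 FPKM, and low for Tnc, a matrix glycoprotein, at 1.25 FPKM. Vehicle 3 held Ighm at 621 FPKM. Vehicle 4 held Mrpl1 at 5.98 FPKM, Acadl at 272 FPKM and Ckm at 85.0 FPKM, and auranofin 4 held Ckm at 50.8 FPKM.

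The change in iWAT exceeded that in BAT by a test of the difference for Fosl1 (2.0), Csf1 (1.85) and Irgm2 (0.853).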

How the results depend on the processing

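The count of genes called in iWAT was 0 over all 8 libraries and stayed 0 under other pseudocounts, filters, scalings, voom, a fit without intensity trend, protein-coding genes alone, the length trend removed and without the muscle-rich pair. It was 6095 with sample quality weights and 722 in 1 fit of all 32 libraries. Leaving out single libraries gave 0 to 4819, the highest without auranofin 2 and 0 without any other. With auranofin 2 left out it was 3733 with quantile normalisation, 6672 on the TPM scale (5644 higher and 1028 lower, against 2000 and 2819), 4287 with the length trend removed and 5038 with voom. With a second library left out as well it was 3813, 3663, 4497 and 4936 without vehicle 1 to 4 and 4088, 2970 and 3335 without auranofin 1, 3 and 4. The genes whose groups did not overlap numbered 682, and 800 to 5752 without single libraries (1328 without vehicle 3, 1831 without vehicle 4, 5752 without auranofin 2).

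For Lep the change of -0.345 was 0.032 with quantile normalisation, -0.526 with sample quality weights and -0.061 on the TPM scale. With auranofin 2 left out it was -0.601 as it stands and with voom and -0.519 with the length trend removed, which passed the limma threshold, but -0.05 with quantile normalisation (adjusted p = 0.765) and -0.199 on the TPM scale (adjusted p = 0.132), which did not. Without single libraries it was -0.601 to -0.236. The differences from eWAT numbered 0, 4083 with weights and 0 to 2036 without single libraries (2036 without iWAT auranofin 2, 1 without eWAT vehicle 2). The differences from BAT numbered 3, 11 at a mean FPKM of 2 or more, 6 on the TPM scale, 15 with quantile normalisation, 4411 with weights and 0 to 3664 without single libraries: 3664 without iWAT auranofin 2, 333 without BAT auranofin 2, 12 without iWAT vehicle 4, 1 without iWAT auranofin 1 or BAT vehicle 2, 2 without iWAT auranofin 4, and 0 without any other.

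Directions of single genes turned as follows. Adipoq was 0.151 with quantile normalisation and 0.160 with auranofin 2 left out too. Cfd was 0.251 on the TPM scale, 0.391 with quantile normalisation and 0.273 with the length trend removed, 0.271, 0.489 and 0.280 with auranofin 2 left out too, and -0.329 to 0.195 without single libraries (0.195 and 0.134 without vehicle 1 and 3, 0.014 and 0.070 without auranofin 1 and 3). Mt1 was 0.239, 0.292 and 0.249 under those settings, 0.071, 0.160 and 0.061 with auranofin 2 left out too, and -0.326 to 0.307 without single libraries (0.104, 0.307 and 0.037 without vehicle 3, auranofin 3 and auranofin 4). Mt2 was 0.157 with the length trend removed, 0.070 without the muscle-rich pair, and -0.437 to 0.123 without single libraries (0.015 and 0.123 without vehicle 3 and auranofin 3). Txnrd1 was -0.023 with the length trend removed and -0.084 with auranofin 2 left out too. Nqo1 was -0.05 without the muscle-rich pair and -0.048 to 0.219 without single libraries (-0.00061, -0.019, -0.034 and -0.048 without vehicle 1 and auranofin 1, 3 and 4). Tfam was 2.5e-05 on the TPM scale and 0.060 with auranofin 2 left out too, where Irf7 was 0.018. The cause was not tested.

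The replicate numbers were not taken to pair the libraries, since 1 of the 4 same-numbered correlations of deviations was under 0.1 (0.0695, 0.161, 0.279 and 0.397). Vehicle 2, 3 and 4 correlated best with their own number, vehicle 1 with auranofin 2 (0.261) and auranofin 1 with vehicle 3 (0.136). A replicate block gave 0 called genes in iWAT, 0 differences from eWAT and 2 from BAT.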

Other observations

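Other genes of inguinal fat differed from vehicle in auranofin 1, 3 and 4 but not in auranofin 2. Xdh, xanthine dehydrogenase of purine breakdown, was at 13.2 to 18.8 FPKM in vehicle and at 26.9, 15.6, 26.6 and 28 FPKM in auranofin. Abcc4, an exporter of cyclic nucleotides, was at 0.831 to 1.37 FPKM and at 2.38, 1.14, 2.40 and 2.30 FPKM. Robo4, an endothelial receptor, changed by 0.66 (SE 0.28), Pdgfrb, a receptor of pericytes and progenitors, by 0.62 (SE 0.29), Kmt2a, a histone methyltransferase, by 0.54 (SE 0.22) and the noncoding RNA Gm26917 by 0.80 (SE 0.30). Lower in those 3 libraries than in any vehicle library was Dpt, a fibroblast matrix protein, at 828 to 1118 FPKM in vehicle and 574, 923, 542 and 439 FPKM in auranofin. The same held for Lgals3, galectin 3, which changed by -0.58 (SE 0.24), and Hspe1, the mitochondrial chaperonin 10, by -0.79 (SE 0.31). None of these 9 passed the limma adjustment over 8 libraries.

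In 2 genes all 4 auranofin libraries lay on the same side of vehicle. Hk1, a hexokinase, was at 2.64 to 3.38 FPKM in vehicle and 3.48 to 4.32 FPKM in auranofin. Lsm7, a subunit of RNA decay and splicing complexes, was at 17.9 to 19.6 FPKM and 7.6 to 15.9 FPKM. The groups overlapped for Hbb-bs, a beta-globin gene of red blood cells, at 671, 440, 533 and 382 FPKM in vehicle and 218, 285, 429 and 194 FPKM in auranofin. They overlapped at auranofin 2 for Trf, transferrin, at 52.0 to 115 FPKM in vehicle and 33.5, 66.8, 38.8 and 39.5 FPKM in auranofin.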
